A study of Mus musculus with 12 samples.

Results

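The genes described here are those of the urea cycle and of ammonia handling in mouse liver, chosen as 10 listed symbols: Cps1, Otc, Ass1, Asl, Arg1, Nags, Glul, Gls2, Glud1 and Slc25a15. A probe set, the group of short oligonucleotides that reports 1 transcript on an Affymetrix array, was taken as a member if its annotation held 1 of these symbols and no other. This gave 13 of the 22626 probe sets tested and 8 of the 10 genes. Otc had 3 probe sets, Glul, Glud1 and Slc25a15 had 2 each, and Cps1, Asl, Arg1 and Nags had 1 each. Ass1 was not analysed here because its probe set is shared with Gm5424, and Gls2 was not analysed here because no probe set carried that symbol. No low-value filter was applied, so all 13 probe sets entered the tests. Where a gene had several probe sets, the one with the highest mean over the 12 arrays represents it and is called its first probe set, and the others are given beside it.

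The arrays measured RNA from livers of C57Bl/6J mice aged 6 to 8 weeks, with 1 array per animal and 3 animals in each of 4 groups. The groups were MMS-treated and control Aag knock-out mice and MMS-treated and control wild-type mice. MMS (methyl methanesulfonate) methylates DNA, and treated animals received 75 mg/kg as 1 intraperitoneal injection, with the liver taken after 6 hours. Aag, also named Mpg, is a DNA glycosylase that cuts out alkylated bases. The knock-out is not described as restricted to 1 cell type, and no source used here says whether controls were injected. The study asked how alkylation changes liver gene expression when Aag is absent.

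The urea cycle is the route by which the liver turns toxic ammonia into urea. Nags makes N-acetylglutamate, the activator that Cps1 needs to capture ammonia in the mitochondrion, and Otc, Ass1, Asl and Arg1 then carry the nitrogen through citrulline, argininosuccinate and arginine to urea, while Slc25a15 exchanges ornithine and citrulline across the mitochondrial membrane. Glud1 releases ammonia from glutamate, and Gls2 releases it from glutamine in hepatocytes near the portal vein. Glul, in the hepatocytes around the central vein, captures the ammonia that escapes the cycle as glutamine.

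All values below are log2 expression values, and each difference is a log2 difference with the standard error of the fit. A gene is said to have risen or fallen when its limma p-value, adjusted by Benjamini-Hochberg over the 22626 probe sets, was under 0.05. The targeted gene Mpg ran from 4.95 to 5.75 in knock-out and from 6.21 to 6.94 in wild-type livers at 1 of its 2 probe sets (-1.17 ± 0.15 averaged over treatments, limma adjusted p = 0.0272). At the other the genotypes overlapped (-0.31 ± 0.14, adjusted p = 0.615), and which part of the gene each probe set reads is not known here. The first of these calls was kept in 9 of 21 alternative settings, while the genotypes do not overlap at that probe set. The mean of 8 hepatocyte markers, among them albumin, lay between 14.03 and 14.24 on every array. In the wild-type MMS response 5 of 10 endothelial, 4 of 10 stellate and fibroblast and 2 of 7 lymphocyte markers fell, and in the knock-out response 1, 0 and 0 did. Over all probe sets 4.45% were called lower in wild type and 0.76% in knock-out. Also in wild type, 2 of 8 neutrophil and 1 of 4 erythroid markers rose, and of 10 macrophage markers 1 rose and 1 fell. In knock-out 1 of 6 bile duct markers rose. The endothelial marker mean was 8.69 to 8.92 in MMS-treated and 8.99 to 9.16 in control knock-out livers, and 8.60 to 8.69 in MMS-treated and 9.15 to 9.30 in control wild-type livers. The stellate and fibroblast mean was 8.93 to 9.26 in MMS-treated and 9.21 to 9.28 in control knock-out livers, and 8.47 to 8.77 in MMS-treated and 9.26 to 10.17 in control wild-type livers. The lymphocyte mean was 6.31 to 6.70 in MMS-treated and 6.68 to 6.94 in control knock-out livers, and 5.98 to 6.06 in MMS-treated and 6.56 to 6.72 in control wild-type livers. For 3 of the 12 arrays the best correlated array lay in another group: control knock-out array 3, MMS-treated knock-out array 3 and MMS-treated wild-type array 1 (r between 0.987 and 0.989). A clock score, the mean of evening-peaking minus dawn-peaking clock genes after centring, was 1.88, 1.09 and 1.64 on MMS-treated and -0.90, -1.31 and 2.06 on control knock-out arrays. The score was between 1.3 and 1.49 on MMS-treated and between -3.07 and -2.69 on control wild-type arrays. The control probe sets for actin and Gapdh gave a log2 ratio of 5' over 3' signal, a measure of RNA and labelling quality, of -1.61 and -1.51 on MMS-treated knock-out arrays 1 and 2, and of -2.66 to -2.0 on the other 10 arrays. The endothelial, stellate and lymphocyte means and the clock score thus separated MMS-treated from control arrays in wild type. In knock-out only the endothelial of these means did, and the clock score of control array 3 was the highest of all 12. The mean of 6 bile duct markers also separated the knock-out arrays, with 7.16 to 7.61 after MMS and 6.74 to 7.05 in controls. In wild type it lay the other way, at 6.64 to 6.97 after MMS and 7.03 to 7.43 in controls. The mean of 4 erythroid markers was 7.10 to 7.32 in MMS-treated and 7.39 to 7.65 in control knock-out livers, and overlapped in wild type. The part of these markers and of the clock score in the results below was not tested.

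Nags, whose product switches the cycle on, had the largest MMS difference of the 8 genes. It was 9.83, 9.96 and 9.34 in MMS-treated knock-out livers, against 8.46, 8.62 and 8.90 in control knock-out livers. Every treated knock-out value lay above every control knock-out value, with treated arrays 1 and 2 the 2 highest of all 12. In wild type the values were 8.79, 9.34 and 9.01 after MMS and 8.83, 9.14 and 9.0 in controls, which overlap. Nags rose in knock-out liver by 1.05 ± 0.20, or 2.07-fold (95% interval 1.53 to 2.81, limma adjusted p = 0.0403). In wild-type liver the difference was 0.06 ± 0.20 (adjusted p = 0.895 in limma), with an interval of 0.77- to 1.41-fold. In bulk liver, fewer cells of a type and less RNA per cell cannot be told apart, and this holds for every difference reported here.

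Nags was the only one of the 8 genes called in the knock-out response, in which 1.51% of all probe sets were called and 0.747% were called higher. The group means ran from 9.71 ± 0.33 in MMS-treated knock-out through 9.05 ± 0.28 in MMS-treated wild type and 8.99 ± 0.15 in control wild type to 8.66 ± 0.22 in control knock-out liver (SD, n = 3 each). No neighbouring pair in that order passed the limma threshold. MMS-treated knock-out liver exceeded MMS-treated wild-type liver by 0.67 ± 0.20 (adjusted p = 0.15), and control knock-out liver stood at -0.33 ± 0.20 relative to control wild-type liver (adjusted p = 0.796). The response in knock-out minus that in wild type was 1.00 ± 0.28 (unadjusted p = 0.00464, limma adjusted p = 0.153), which did not pass. The rise in knock-out liver kept its call in 11 of 22 alternative settings. With the 5' to 3' ratio, which was highest on the same 2 arrays, as a covariate it was 0.60 (limma adjusted p = 0.334), and with the compared groups alone it was 1.05 (adjusted p = 0.157). Leaving out control wild-type 1, 2 or 3, control knock-out 1 or 2, MMS-treated wild-type 3 or MMS-treated knock-out 1 or 2 gave differences of 0.93 to 1.05 with adjusted p between 0.0591 and 0.184. Leaving out any 1 of the other 4 arrays kept the call, with differences of 1.05 to 1.24 and adjusted p between 0.00776 and 0.0365.

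**Figure D1:**
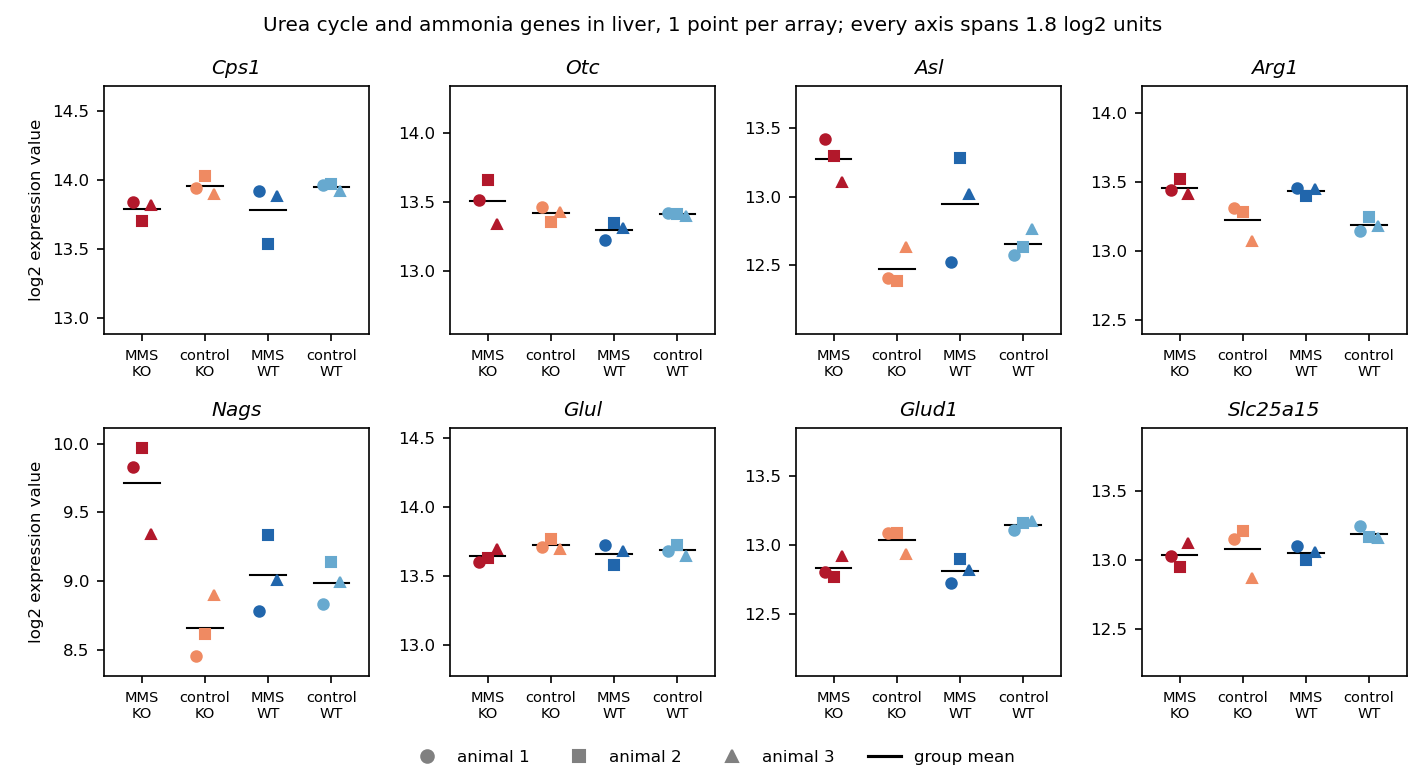
Log2 expression values of the first probe set of each of the 8 measured genes, 1 point per array, with point shapes for animals 1 to 3 and black lines for group means; MMS-treated knock-out (MMS KO), control knock-out, MMS-treated wild-type and control wild-type livers run from left to right. In the Nags panel the 3 MMS-treated knock-out values, 9.34 to 9.96, lie above the control knock-out values, 8.46 to 8.90, and the Glul panel has the narrowest range, 13.58 to 13.77.

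The sequence upstream of the transcription start is shown for the 3 genes that had both a called probe set and a window in the RefSeq table (GRCm38.p6), namely Nags, Glud1 and Otc. Each run holds the 250 bases before the annotated start on the gene's own strand, and capitals mark motif matches. The windows are chr11:102145263-102145512 on the plus strand for Nags, chr14:34310477-34310726 on the plus strand for Glud1 and chrX:10252055-10252304 on the plus strand for Otc.
Nags: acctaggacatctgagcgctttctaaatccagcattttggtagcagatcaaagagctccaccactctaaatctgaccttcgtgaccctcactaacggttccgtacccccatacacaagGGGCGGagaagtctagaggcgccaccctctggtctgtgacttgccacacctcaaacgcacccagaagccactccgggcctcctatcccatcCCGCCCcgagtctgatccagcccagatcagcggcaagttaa
Glud1: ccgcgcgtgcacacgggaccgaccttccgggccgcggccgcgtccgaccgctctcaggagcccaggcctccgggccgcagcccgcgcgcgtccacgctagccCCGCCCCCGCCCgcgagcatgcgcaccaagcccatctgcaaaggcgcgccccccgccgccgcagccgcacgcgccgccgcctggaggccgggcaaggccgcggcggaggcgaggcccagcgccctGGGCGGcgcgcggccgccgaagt
Otc: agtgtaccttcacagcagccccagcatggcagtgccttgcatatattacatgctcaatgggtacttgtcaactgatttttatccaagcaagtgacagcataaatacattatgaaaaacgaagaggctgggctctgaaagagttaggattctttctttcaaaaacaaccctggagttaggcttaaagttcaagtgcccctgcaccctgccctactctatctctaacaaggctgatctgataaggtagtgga
The letters of 9 motifs were searched on both strands: the cyclic AMP response element TGACGTCA and its core TGACG, the C/EBP motif TTGCNNAA, the amino acid response element TGATGCAA bound by ATF4 and C/EBP, the NF-Y motif CCAAT, the GC box GGGCGG bound by Sp1, the glucocorticoid receptor motif TGTTCT, the HNF4 core CAAAGTCCA and the TATA box TATAAA. The first contains the second, so matches of these 2 overlap. All matches in the 3 windows were GC boxes. Nags held 2, which begin 132 and 41 bases before the start, and the second lies on the opposite strand. Glud1 held 3, the first 2 of which, on the opposite strand, lie side by side 148 and 142 bases before the start. Otc, whose window was 43.6% G and C against 55.6% for Nags and 82.0% for Glud1, held none. At least 1 GC box was present in 32.7% of the 32851 promoter windows of this length in the table, 1.55% held the full cyclic AMP element, 17.8% its core and 0.791% the ATF4 element. The shares were 9.56% for C/EBP, 33.8% for NF-Y, 16.1% for the glucocorticoid receptor motif, 0.384% for HNF4 and 12.4% for the TATA box.

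Asl, which splits argininosuccinate into arginine and fumarate, also had its highest group mean in MMS-treated knock-out livers. It was 13.41, 13.30 and 13.10 in MMS-treated knock-out livers, against 12.41, 12.39 and 12.63 in control knock-out livers. The groups did not overlap, as was true of 26.7% of all probe sets in that comparison. In wild type, MMS-treated values of 12.53, 13.28 and 13.02 overlapped with control values of 12.57, 12.64 and 12.77, with treated array 1 below all 3 controls. The knock-out difference of 0.79 ± 0.18 did not pass (limma adjusted p = 0.0547), nor did the wild-type difference of 0.28 ± 0.18 (adjusted p = 0.375). Averaged over genotypes, Asl rose by 0.54 ± 0.13, or 1.45-fold (95% interval 1.20 to 1.77, limma adjusted p = 0.0231), with 11.3% of all probe sets called in that comparison and 4.61% called higher. Nags, too, passed there, with 0.55 ± 0.14 (adjusted p = 0.0302), although its 2 genotypes stood at 1.05 and 0.06 on the log2 scale.

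The 5' to 3' ratio of the controls also moved with Asl. The arrays with the highest ratio, MMS-treated knock-out 1 and 2 and MMS-treated wild-type 2 (-1.61, -1.51 and -2.0), were the 3 with the highest Asl values. With the ratio as a covariate the knock-out difference of Asl was 0.46 (limma adjusted p = 0.453). The averaged MMS difference was then 0.37 for Asl (limma adjusted p = 0.0967) and 0.33 for Nags (adjusted p = 0.0943), both positive. Both averaged calls were also lost without control wild-type 1, control knock-out 1 or 2, MMS-treated wild-type 3 or MMS-treated knock-out 1. That of Asl was lost as well without control wild-type 2, and that of Nags without control wild-type 3, MMS-treated wild-type 2 or MMS-treated knock-out 2, with adjusted p between 0.0508 and 0.0821 in all these cases. MMS-treated knock-out array 3, whose ratio of -2.46 lay within the range of the control arrays, had Asl at 13.10 and Nags at 9.34. Without both knock-out arrays numbered 3, the knock-out differences were 1.36 for Nags (limma adjusted p = 0.0111) and 0.96 for Asl (adjusted p = 0.0258). That setting keeps treated knock-out arrays at ratios of -1.61 and -1.51 and controls at -2.54 and -2.66. Treatment and ratio therefore cannot be told apart in it. The mean of 8 pancreatic acinar markers was 9.67 on MMS-treated knock-out array 1 and 6.46 on array 2. The part of these markers in the Nags and Asl values was not tested.

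**Figure D2:**
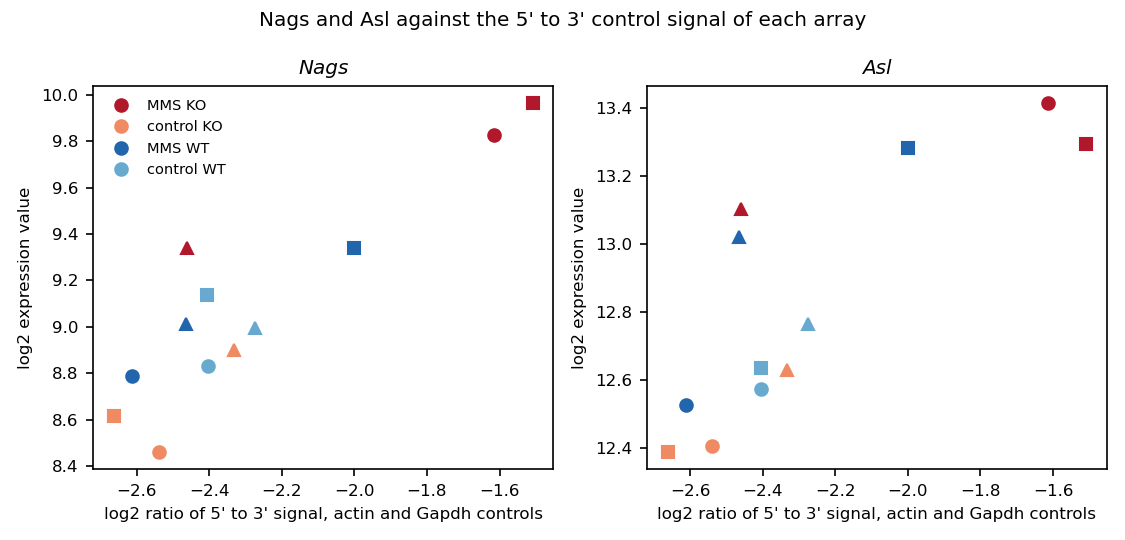
Log2 expression values of Nags and Asl (vertical axes) against the 5' to 3' ratio of the control probe sets (log2, horizontal axes) on each of the 12 arrays, coloured by group and with a point shape for each animal number. MMS-treated knock-out arrays 1 and 2, at ratios of -1.61 and -1.51, stand apart at the right with the 2 highest values of both genes.

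Otc, which joins carbamoyl phosphate to ornithine, differed between its probe sets. At the second probe set it was 10.40, 10.19 and 10.59 in MMS-treated knock-out livers and 10.81, 10.72 and 10.74 in control knock-out livers. Wild-type values there were 10.05, 10.15 and 10.01 after MMS and 10.84, 10.79 and 10.60 in controls. Treated and control groups did not overlap in either genotype, and the wild-type treated arrays were the 3 lowest of all 12. At this probe set Otc fell by 0.67 ± 0.13 in wild-type liver (-0.67, 0.63-fold, 95% interval 0.52 to 0.76, limma adjusted p = 0.0144), the only member probe set called there, where 6.44% of all probe sets were called, 1.99% higher and 4.45% lower. In knock-out liver the difference was -0.36 ± 0.13 (adjusted p = 0.118), and the responses did not differ past the threshold (0.31 ± 0.18, limma adjusted p = 0.381).

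The averaged MMS difference at the second Otc probe set was -0.52 ± 0.09 (limma adjusted p = 0.00631), and this call was kept in all 20 alternative settings that gave it a value. The wild-type call was kept in 19 of 21, and was lost without control wild-type array 1 (adjusted p = 0.0745) and with each array centred on its median (-0.48, adjusted p = 0.0727). The other 2 Otc probe sets gave no call. At the first, the values were 13.34 to 13.66 in MMS-treated and 13.35 to 13.47 in control knock-out livers, and 13.23 to 13.35 in MMS-treated and 13.40 to 13.42 in control wild-type livers, with averaged MMS difference -0.01 ± 0.08. At the third, the averaged difference was -0.14 ± 0.08 (limma adjusted p = 0.281). Which transcript forms or exons the 3 probe sets read is not known here, so the Otc result holds for the second probe set only.

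**Figure D3:**
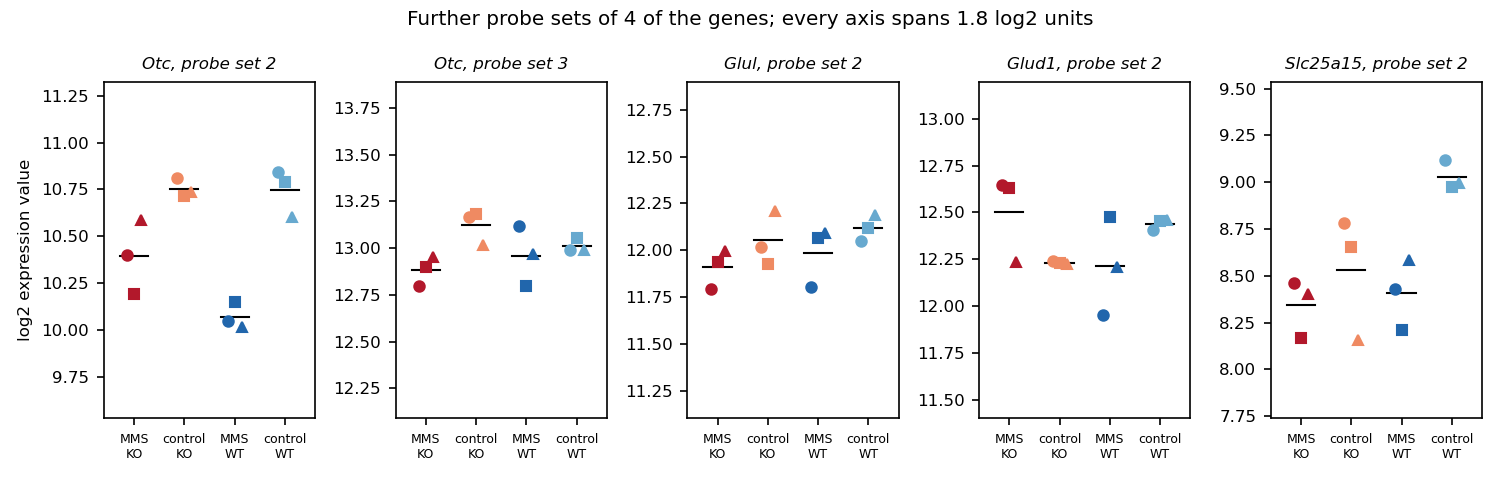
Log2 expression values at the second and the third probe set of Otc and at the second probe sets of Glul, Glud1 and Slc25a15, 1 point per array, with black lines for group means; MMS-treated knock-out, control knock-out, MMS-treated wild-type and control wild-type livers run from left to right. The second Otc probe set lies lower after MMS in both genotypes, and Slc25a15 stands highest in control wild-type livers, at 8.97 to 9.12.

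Cps1, the mitochondrial enzyme that starts the cycle, gave no call in any comparison. It was 13.84, 13.70 and 13.82 in MMS-treated knock-out livers and 13.94, 14.03 and 13.90 in control knock-out livers. In MMS-treated wild-type livers the values were 13.92, 13.53 and 13.89, against 13.97, 13.97 and 13.92 in controls. The treated knock-out values lay below all controls of that genotype, whereas the wild-type groups overlapped and treated array 2 was the lowest of all 12. The MMS differences were -0.17 ± 0.12 in each genotype (limma adjusted p = 0.413 in knock-out and 0.439 in wild type), and the averaged difference was -0.17 ± 0.09, an interval of 0.78- to 1.01-fold. Knock-out and wild type differed by 0.01 ± 0.09 averaged over treatments, which bounds the ratio between 0.88 and 1.15. The highest value in the whole table was 14.88, so Cps1 lay near the upper end of the scale, and whether such bright signals are compressed was not tested.

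Arg1, which releases urea from arginine, lay above its controls after MMS in both genotypes, by amounts that did not pass. It was 13.45, 13.52 and 13.41 in MMS-treated knock-out livers, against 13.31, 13.28 and 13.07 in control knock-out livers. The wild-type values were 13.46, 13.40 and 13.45 after MMS and 13.14, 13.24 and 13.18 in controls. Treated and control groups did not overlap in either genotype, and the 2 differences were alike in size, 0.24 ± 0.11 in knock-out and 0.25 ± 0.11 in wild type (limma adjusted p = 0.194 and 0.192). The averaged difference was 0.24 ± 0.07, or 1.18-fold (95% interval 1.06 to 1.32, limma adjusted p = 0.0614), which missed the threshold as deposited and passed it in 6 of 21 alternative settings. Macrophages can also carry Arg1. The mean of 10 macrophage markers was 10.53 to 11 in MMS-treated and 10.47 to 10.78 in control knock-out livers, and 10.11 to 10.53 in MMS-treated and 10.2 to 10.72 in control wild-type livers, so these groups overlapped. The mean of 8 neutrophil markers did not overlap in wild type, with 5.84 to 6.46 after MMS and 5.38 to 5.65 in controls, and its part in the Arg1 values was not tested.

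Slc25a15, the ornithine and citrulline carrier, was not called at either probe set. At its first probe set it was 13.03, 12.95 and 13.12 in MMS-treated and 13.15, 13.21 and 12.87 in control knock-out livers, and 13.10, 13.00 and 13.06 in MMS-treated and 13.24, 13.16 and 13.16 in control wild-type livers. The knock-out groups overlapped and the wild-type groups did not. The averaged MMS difference there was -0.09 ± 0.08 (0.83- to 1.07-fold). At the second it was 8.46, 8.17 and 8.40 in MMS-treated knock-out livers and 8.78, 8.65 and 8.16 in control knock-out livers. In wild type the second probe set read 8.43, 8.21 and 8.58 after MMS and 9.12, 8.97 and 9.0 in controls. All 3 control wild-type arrays therefore stood above the other 9. The wild-type MMS difference was -0.62 ± 0.17 (limma adjusted p = 0.0565) and control knock-out differed from control wild-type liver by -0.50 ± 0.17 (adjusted p = 0.561), and neither passed. The averaged MMS difference at the second probe set was -0.40 ± 0.12 (limma adjusted p = 0.0558). It passed in 4 of 20 alternative settings and the wild-type difference in 6 of 21.

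Glud1, the dehydrogenase that releases ammonia from glutamate in the mitochondrion, was 12.80, 12.77 and 12.92 at its first probe set in MMS-treated knock-out livers, against 13.09, 13.08 and 12.93 in control knock-out livers. Wild-type livers had 12.73, 12.90 and 12.82 after MMS and 13.11, 13.16 and 13.17 in controls. The treated groups lay below their controls in both genotypes, narrowly in knock-out, where treated and control arrays 3 nearly met. Averaged over genotypes Glud1 fell by 0.27 ± 0.07 (-0.27, 0.83-fold, 95% interval 0.74 to 0.93, limma adjusted p = 0.0412), in a comparison with 6.66% of probe sets called lower. The second probe set gave no call. The averaged difference there was 0.02 ± 0.11, with 0.27 ± 0.15 in knock-out and -0.23 ± 0.15 in wild type (limma adjusted p = 0.291 and 0.407). The call was lost when the 2 probe sets were averaged (-0.12, adjusted p = 0.307), with each array centred on its median (adjusted p = 0.168) and with the 5' to 3' ratio as a covariate (adjusted p = 0.109). Leaving out any 1 of 9 arrays also ended it (all 3 controls of wild type, control knock-out 1 and 2, MMS-treated wild-type 1 and 3, MMS-treated knock-out 1 and 2).

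Glul, the glutamine synthetase of the hepatocytes around the central vein, had the narrowest range of the 8 genes when each was read at its first probe set. At its first probe set it was 13.60, 13.63 and 13.70 in MMS-treated knock-out livers and 13.71, 13.77 and 13.70 in control knock-out livers. The wild-type values were 13.72, 13.58 and 13.68 after MMS and 13.68, 13.73 and 13.65 in controls. All 12 values lay between 13.58 and 13.77, and the knock-out groups just failed to meet while the wild-type groups overlapped. The averaged MMS difference was -0.05 ± 0.07 (limma adjusted p = 0.642), an interval of 0.87- to 1.07-fold, and that between genotypes was 0.01 ± 0.07, an interval of 0.91- to 1.12-fold. At the second probe set, between 11.8 and 12.2, the averaged MMS difference was -0.14 ± 0.09 (limma adjusted p = 0.343). The range over the 12 arrays was 0.19 at the first probe set, with mean 13.68, and 0.42 at the second, with mean 12.02. Whether the bright signal of the first is compressed was not tested.

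**Figure D4:**
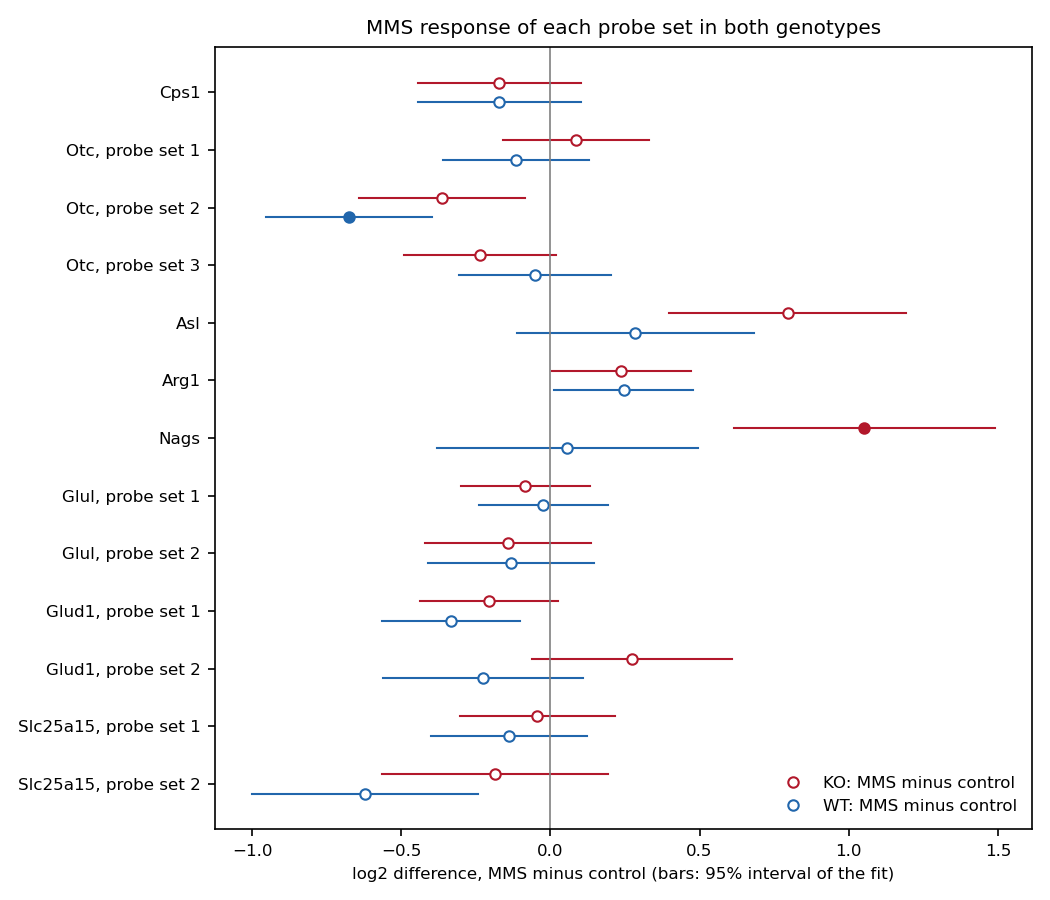
Log2 difference of MMS-treated minus control livers (horizontal axis) at each of the 13 probe sets, with knock-out in red above wild type in blue, bars for the 95% interval of the fit and filled points for an adjusted p under 0.05. The filled points are Nags in knock-out (1.05) and the second Otc probe set in wild type (-0.67).

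Across the 8 genes the response therefore ran both ways. In the averaged MMS effect 2 rose (Asl, Nags), 1 fell (Glud1) and 5 did not pass, against 11.3% of all probe sets called, and the median difference was -0.03 for the 8 genes and -0.05 for all probe sets. In wild-type liver 0 of 8 genes passed the limma threshold at the first probe set, 2 had an unadjusted p under 0.05 (Glud1 and Arg1), and 4 had groups that did not overlap, against 31.8% of all probe sets. In knock-out liver 6 of 8 did not overlap (Nags, Asl, Arg1, Cps1, Glud1 and Glul), against 26.7% of all probe sets. The loss of Aag itself gave no call among the 8 genes. After MMS, knock-out against wild type called 0 of 8 in limma, with 1 (Nags) at an unadjusted p under 0.05, and 0.0177% of all probe sets were called. The groups of 1 gene, Nags, did not overlap there, against 17.6% of all probe sets. In control livers it called 0 of 8, with 0 at an unadjusted p under 0.05, and 0.0398% of all probe sets were called. Here the groups of Glud1 alone did not overlap, against 18.3% of all probe sets. Averaged over treatments the counts among the 8 genes were also 0 and 0, with 0.0265% of all probe sets called, and the differences lay between -0.07 (Slc25a15) and 0.17 (Nags). The difference of the responses called 0 of 22626 probe sets in limma (0%), of which 4009 had an unadjusted p under 0.05, and at the first probe sets of the 8 genes Nags was the single one below that value. Of all 13 member probe sets 2 were, the other being the second of Glud1 (0.50 ± 0.22, limma adjusted p = 0.263).

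Genes around the cycle were read from lists chosen by function. Each count below stands beside 1.51% of all probe sets called in knock-out liver and 6.44% in wild-type liver, so that 1 call in a list is not read as a result about the list. In the list of other urea cycle, arginine and proline genes 14 of 16 were measured. In knock-out liver none was called (median 0.10, against -0.06 for all genes), and Car5a, the mitochondrial carbonic anhydrase that supplies bicarbonate to Cps1, stood at 1.06 ± 0.26 (limma adjusted p = 0.0617). Its values were 10.31, 10.49 and 9.80 in MMS-treated and 8.93, 8.88 and 9.61 in control knock-out livers, highest on the same 2 arrays as Nags. In wild-type liver 1 fell, 0 rose and 13 were not called (median -0.16, against -0.06 for all genes). This was Gatm, which takes arginine toward creatine (-1.15 ± 0.22, limma adjusted p = 0.00746), and it also passed in the averaged effect (-0.83, adjusted p = 0.00428). Both Gatm calls were kept in all alternative settings. Gatm was 6.52, 6.71 and 6.50 in MMS-treated and 7.46, 6.95 and 6.87 in control knock-out livers. Its wild-type values were 6.38, 6.86 and 6.64 after MMS and 7.88, 7.57 and 7.88 in controls, so the control knock-out values lay below the control wild-type values.

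Among genes of nitrogen transport and transamination 17 of 21 were measured. None passed in knock-out liver (median -0.06), where Got1, the cytosolic aspartate transaminase, stood at 1.64 ± 0.38 (limma adjusted p = 0.0552). Its values were 12.12, 12.23 and 11.03 in MMS-treated and 10.09, 9.94 and 10.43 in control knock-out livers, highest on the same 2 arrays as Nags. Wild-type values of Got1 were 10.46, 11.89 and 11.29 after MMS and 11.12, 10.80 and 11.38 in controls, which lay above the control knock-out values. In wild-type liver 1 fell and 16 were not called (median 0.11). The gene that fell was Rhbg, an ammonium transporter of hepatocytes around the central vein (-1.0 ± 0.20, limma adjusted p = 0.0173). Rhbg was 8.37, 8.92 and 8.95 in MMS-treated and 9.09, 8.90 and 9.12 in control knock-out livers, and 8.17, 8.50 and 8.56 in MMS-treated and 9.62, 9.08 and 9.54 in control wild-type livers. Every MMS-treated wild-type value lay below the controls, while Glul, expressed in the same zone, differed there by -0.02 ± 0.10. The Rhbg call was lost without control wild-type 1 or 3 or MMS-treated wild-type 1 (adjusted p up to 0.0852). Of 15 pericentral markers, Glul and Rhbg among them, 1 fell (Rhbg) and 14 were not called in wild-type liver, and none was called in knock-out liver, with medians of -0.07 in knock-out and -0.02 in wild type. Of 10 measured periportal markers, a list that also holds Cps1, none was called in knock-out liver. In wild-type liver 1 fell, Cdh1, the adhesion molecule E-cadherin (-1.27 ± 0.14, limma adjusted p = 0.00217), and 9 were not called. Cdh1 was 10.57, 10.57 and 10.35 in MMS-treated and 11.28, 11.21 and 10.87 in control knock-out livers, so it was lower after MMS there too. Its averaged MMS difference of -0.95 passed (limma adjusted p = 0.00107). Both Cdh1 calls were kept in all alternative settings.

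Of 28 genes of amino acid breakdown, which deliver nitrogen to the cycle, 25 were measured. In knock-out liver 1 rose, 0 fell and 24 were not called (median -0.08). This was Mat1a, which makes the methyl donor S-adenosylmethionine from methionine (0.98 ± 0.19, limma adjusted p = 0.0403). It was 13.38, 13.47 and 12.96 in MMS-treated and 12.13, 12.22 and 12.52 in control knock-out livers. In wild type Mat1a was 12.65, 13.11 and 13.13 after MMS and 12.15, 12.26 and 12.45 in controls, also higher after MMS though not called. The knock-out call was lost with the compared groups alone (adjusted p = 0.157). It was also lost without any 1 of the 3 control wild-type arrays, control knock-out 1 or 2, MMS-treated wild-type 3 or MMS-treated knock-out 1 or 2 (adjusted p up to 0.184). In the averaged effect Mat1a rose by 0.83 (adjusted p = 0.00468), and this call, unlike that in knock-out liver (0.60, adjusted p = 0.350), was kept with the 5' to 3' ratio as a covariate (0.63, adjusted p = 0.0157). In wild-type liver 1 fell, 0 rose and 24 were not called (median -0.14). This was Bckdhb, a subunit of the branched-chain ketoacid dehydrogenase (-0.50 ± 0.13, limma adjusted p = 0.0466), a call that was lost with each array centred on its median (-0.31, adjusted p = 0.127), with the compared groups alone (0.0719) and without any 1 array except the 2 knock-out arrays numbered 3 (up to 0.167). Dbt, another subunit of that enzyme, fell in the averaged effect (-0.43, limma adjusted p = 0.0284), and this was lost under centring and with the covariate (adjusted p = 0.0669 and 0.0723), and without control wild-type 1 or 3, control knock-out 1 or 2, MMS-treated wild-type 3 or MMS-treated knock-out 2 (up to 0.0777).

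Regulators and hormone-responsive genes that are linked to urea cycle expression were the remaining list, with 15 of 16 measured. None was called in knock-out liver (median -0.14). In wild-type liver 1 rose, 2 fell and 12 were not called (median -0.07). Ppargc1a, the coactivator of the fasting programme, fell by 1.62 (-1.62 ± 0.32, limma adjusted p = 0.0172), and its averaged difference of -1.18 passed in all alternative settings. The gluconeogenic phosphatase G6pc fell by 1.38 (-1.38 ± 0.34, adjusted p = 0.0394, and 0.0510 with each array centred on its median). G6pc was 11.97, 11.87 and 12.64 in MMS-treated and 12.18, 12.17 and 12.53 in control knock-out livers. Its wild-type values were 11.84, 11.06 and 12.69 after MMS and 13.13, 13.29 and 13.31 in controls, so the control knock-out values lay below the control wild-type values. Fgf21, a stress and fasting hormone, rose by 0.59 ± 0.13 (adjusted p = 0.0261). Its wild-type values were low, 6.29, 6.08 and 6.25 after MMS and 5.69, 5.43 and 5.73 in controls, against array medians of 7.42 to 7.75. Leaving out 1 array ended these 3 wild-type calls for control wild-type 1 and 3 in each case. The same held for MMS-treated wild-type 2 and 3 with Ppargc1a, for control wild-type 2, MMS-treated wild-type 1 and 2 and control knock-out 1 and 2 with G6pc, and for control wild-type 2 and MMS-treated wild-type 1 and 3 with Fgf21 (adjusted p up to 0.125). With the compared groups alone the adjusted p was 0.0755 for G6pc and 0.0531 for Fgf21, and with a trended robust variance it was 0.0551 for Fgf21. Klf15, a regulator of amino acid breakdown, was 12.18, 12.29 and 11.83 in MMS-treated and 11.33, 11.21 and 11.73 in control knock-out livers, a difference of 0.67 ± 0.20 (limma adjusted p = 0.0900).

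**Figure D5:**
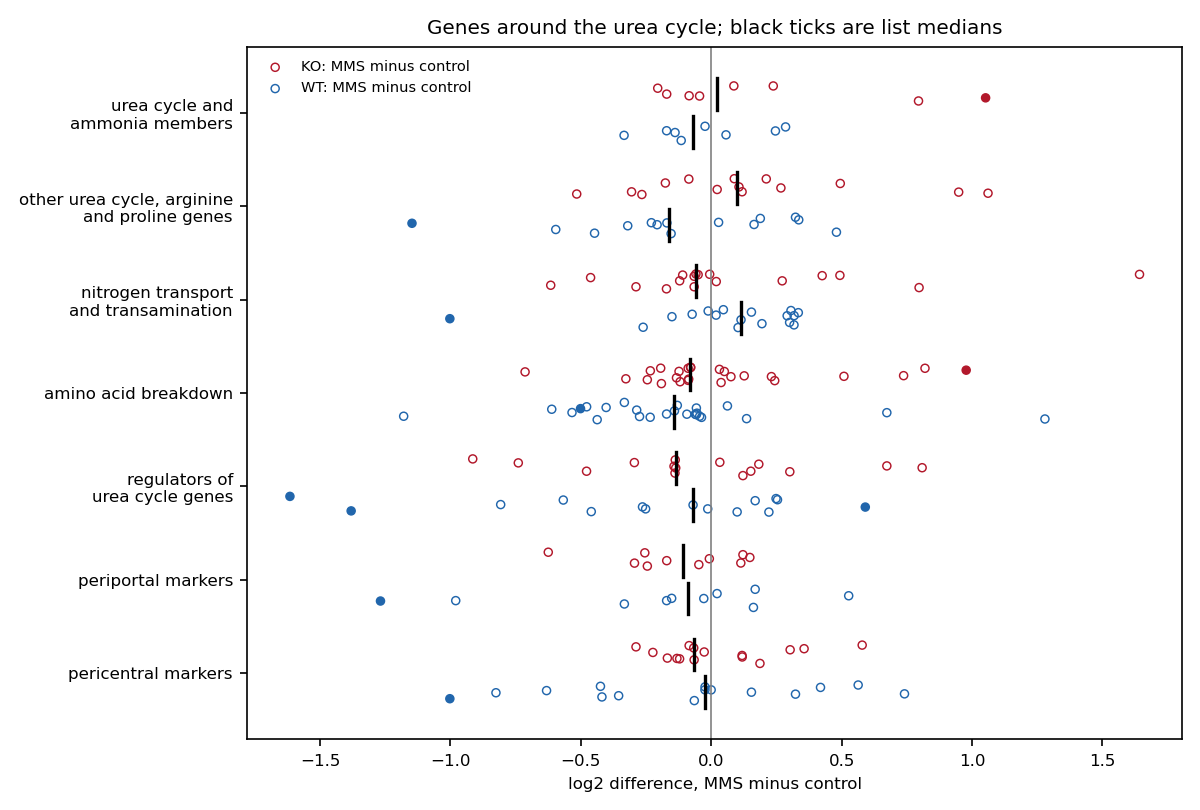
Log2 difference of MMS-treated minus control livers (horizontal axis) for the genes of 7 lists, with knock-out in red above wild type in blue, filled points for an adjusted p under 0.05 and black ticks for list medians. The list medians lie between -0.16 and 0.11 in both genotypes, with single genes such as Nags in knock-out liver and Ppargc1a in wild-type liver away from them.

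Likeness of pattern was measured as Pearson's r over the 12 arrays across 12393 genes, as a description, since the arrays share group and quality differences. The 3 genes most like Cps1 were Rbbp4 (r = 0.969), Cd81 (r = 0.957) and Sdha (r = 0.956). For Arg1 they were Chil3 (r = 0.914), Faap24 (r = 0.913) and Plpbp (r = 0.908), and for Glul Tdpoz1 (r = 0.954), Adk (r = 0.948) and Pgrmc1 (r = 0.946). The Glul values hold for its first probe set only, which correlated with the second at r = 0.036. Nags and Asl were added after their values had been seen. Nags was most like Cibar1 (r = 0.967), Nudt22 (r = 0.965) and Denr (r = 0.964), and Asl most like Keap1 (r = 0.988), Paf1 (r = 0.988) and Tkt (r = 0.984). After the group means were removed, r with these genes lay between 0.939 and 0.977 for Cps1, 0.548 and 0.860 for Arg1, 0.930 and 0.948 for Glul, 0.904 and 0.952 for Nags, and 0.967 and 0.971 for Asl.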

How the data were processed

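The deposited table holds 1 log2 value per probe set and array, made with RMA, which corrects background, normalizes and summarises probes, as named in the submitters' processing notes. The log base was taken from RMA's usual output and the range of the values. No source used here gives RMA's version, the chip definition or the arrays it was run on together. A shift in most genes at once would be lost in such normalization. No detection call was used here, and the number of arrays limits precision.

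The table has 22690 rows and 0 extra sample columns. After 64 control probe sets were set aside, 22626 were tested: 20380 had 1 gene symbol, 691 several and 1555 none in the platform annotation. Of those with 1 symbol, 20351 were found in a RefSeq gene table (GRCm38.p6) and took its symbol, whether or not it differed. With limma 3.58.1 in R 4.3.3, a mean for each group was fitted over the 12 arrays, leaving 8 residual degrees of freedom, with 7 contrasts and an adjusted p threshold of 0.05. It was first tested on simulated data. Replicates are separate animals by their titles, and no batch is given. Alternatives were filtering, scaling, variance models, array weights, a block for the animal number, left-out arrays, averaged probe sets, the compared groups alone and the 5' to 3' ratio as a covariate. No pseudocount was needed on log2 values.

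The members and gene lists were chosen with earlier results of these data known. Named genes were the members, Mpg, and list genes past the threshold or among the 3 with the smallest p. Likeness was set for Cps1, Arg1 and Glul.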

Additional observations from a re-analysis of the deposited data

How the results depend on the processing

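Of 1928 values of the 13 probe sets under alternative settings, 1728 kept their direction and their side of the threshold, 42 lost a call, 41 gained one, 117 changed sign without a call before or after, and none reversed a call. With each array centred on its median, the median over all probe sets was 0.14 in the wild-type response (-0.05 as deposited), -0.13 in the knock-out response (-0.06), -0.14 between genotypes after MMS (0.02) and -0.21 in the difference of the responses (0.05), so values near 0 have no settled sign. The share of calls that were higher was 30.9% as deposited, 53.7% after quantile normalization and 72.8% after centring in wild type, 49.6%, 47.8% and 44.4% in knock-out, and 40.9%, 53.4% and 63.3% in the averaged MMS effect. Between genotypes, with at most 9 calls, it was 25%, 20% and 0% after MMS, 44.4%, 57.1% and 62.5% in controls and 33.3%, 50% and 33.3% on average.

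The number of genes called among the 8 in the MMS response in knock-out liver was 1 as deposited. It was 2 without the lowest 25% of probe sets, after quantile normalization, with a trended robust variance and without both knock-out arrays numbered 3, 3 with array weights, and 0 with the replicate block, with the 5' to 3' covariate and with the compared groups alone. In wild-type liver it was 0, and 1 with the trended robust variance and 2 with array weights. In the averaged MMS effect it was 3 as deposited and 0 with the covariate, and the genes called also changed in other settings. Arg1 passed without the lowest 25% of probe sets, after quantile normalization and with a trended robust variance. It also passed with array weights and with averaged probe sets (limma adjusted p between 0.00853 and 0.0453). Glud1 did not pass with centring, the replicate block or averaged probe sets (limma adjusted p between 0.0669 and 0.307). With array weights, and without both knock-out arrays numbered 3, 1 gene (Nags) was called between genotypes after MMS and in the difference of the responses. Leaving out 1 array gave 0 to 2 genes in the knock-out response, 0 in the wild-type response, 0 to 4 in the averaged MMS effect, 0 to 1 between genotypes after MMS and 0 in the other 3 comparisons. Some settings use fewer arrays or probe sets, and the cause of these changes was not tested.

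Counts over all probe sets moved more. In wild-type liver 1458 were called, and 4873 with array weights, 2288 with the covariate and 2222 without both knock-out arrays numbered 3. In knock-out liver 341 were called, and in the order of the settings above 971, 533, 1029, 3326, 5790, 19, 0 and 0. Between genotypes after MMS 4 were called, and 80 without the lowest 25%, 64 with the trended variance, 1482 with array weights and 1353 without both arrays. In controls 9 were called, and 182 with array weights and 3 with the compared groups alone. The difference of the responses had 0, and 30 without the lowest 25%, 28 with the trended variance, 2344 with array weights and 514 without both arrays. The averaged MMS effect had 2551, and 7459 with array weights, 1160 with the covariate and 4188 without both arrays. The averaged knock-out effect had 6, and 11 without the lowest 25%, 12 with the trended variance, 64 with array weights and 3 with the replicate block. Leaving out 1 array gave 274 to 1798 in wild-type liver, 0 to 3264 in knock-out liver, 3 to 1118 between genotypes after MMS, 4 to 18 in controls, 0 to 158 in the difference of the responses, 1233 to 4307 in the averaged MMS effect and 3 to 13 in the averaged knock-out effect.

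The labels do not say that animal numbers mark a shared batch, and the numbers were not taken to pair the arrays: deviations from group means correlated above 0.1 in 7 of 18 pairs with the same number and in 13 of 36 pairs with other numbers. As a hint the other way, 8 of 12 arrays correlated best, among arrays of the other groups, with one of their own number. With the replicate block the adjusted p was 0.0580 for Nags and 0.0639 for Mat1a in knock-out liver, 0.0669 for Glud1 in the averaged MMS effect, 0.0608 for Bckdhb in wild-type liver and 0.135 for Mpg, each of which was called without it.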
